A study of Homo sapiens with 6 samples.

Results

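The genes described here encode the nuclear subunits of the oxidative phosphorylation complexes of mitochondria. They were chosen by symbol from the count table, as the *NDUFA*, *NDUFB*, *NDUFC*, *NDUFS* and *NDUFV* genes of complex I, the *SDH* genes of complex II, the *UQCR* genes of complex III, the *COX4* to *COX8* genes of complex IV and the *ATP5* genes of complex V. Of 93 symbols in the table that began this way, 77 had at least 10 counts in every culture and were kept, out of 26485 genes in all. Another 11 did not reach this minimum, 3 were antisense names and 2 were pseudogene names. The table uses older symbols for complex V, so that *ATP5G3* is the gene now called *ATP5MC3*, and these older symbols are kept here. By complex, 36 members belonged to complex I, 4 to complex II, 8 to complex III, 12 to complex IV and 14 to complex V. Despite its name, *NDUFA4* was counted in complex IV, as was *COX7A2L*, a factor of supercomplexes (assemblies of several complexes). The other 3 carry such a name without being a structural subunit, namely *UQCRHL*, an intronless copy of *UQCRH*, and *ATP5S* and *ATP5SL*, which encode mitochondrial proteins other than the subunits.

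RNA-seq of polyadenylated RNA was performed on 6 cultures of HEK293, a human embryonic kidney cell line, in a study of long noncoding RNAs that lie in copy number variants linked to congenital kidney anomalies. In 3 cultures, the noncoding RNA *HSALNG0134318* of 22q11.2 was knocked down with a Smart Silencer, which mixes siRNAs with antisense oligonucleotides and was delivered by lipofection, and 3 cultures were controls, labelled NC (taken as negative control) and, for genotype, WT. The cultures are called knockdown replicates 1 to 3 (numbers 1, 4 and 5 in the labels) and control replicates 1 to 3 (numbers 10, 11 and 1). The deposited counts totalled 13900965 to 16869948 per culture, the table does not list *HSALNG0134318*, so the knockdown could not be checked in it, and all 8 HEK293 marker genes examined were expressed and none was called different between the groups. Of 8 markers of other cell types, those of hepatocytes, muscle and mature kidney tubule among them, 3 (*CD68*, *COL1A1* and *COL3A1*) had enough counts to be tested and none was called.

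Oxidative phosphorylation passes electrons from NADH and succinate through complexes I and II to ubiquinone, then through complex III and cytochrome c to complex IV, which reduces oxygen. Complexes I, III and IV pump protons out of the mitochondrial matrix, and complex V, the ATP synthase, uses their return to make ATP. The complexes other than complex II also hold subunits encoded by mitochondrial DNA, none of which (0 of 13) is listed in the table, so only nuclear transcripts are described. Many promoters of the nuclear genes are known to be bound by NRF1, by the ETS factor GABPA and by YY1.

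All 77 members passed the filter on low counts, few passed the test, and these split evenly by direction. Of 77 members, 2 rose in the knockdown cultures, *SDHB* among them, and 2 fell, *NDUFC2* and *ATP5G3*, with a call meaning that the quasi-likelihood p from edgeR stayed below 0.05 after Benjamini-Hochberg adjustment. Over all 14877 genes tested, 5.40% rose and 4.64% fell by the same rule, so the share of members called was no higher than that of all genes. At an unadjusted edgeR quasi-likelihood p under 0.05, 16 of the 77 members differed, as did 3996 of all 14877 genes tested. Below the threshold most members leaned one way, since the log2 fold change (knockdown over control) was negative in 61 and positive in 16, with a median of -0.23 against -0.02 over all genes tested. All 3 knockdown cultures lay below all 3 controls in 10 members and above them in 6, where 15.8% and 16.4% of all genes did so. The calls of *SDHB*, *NDUFC2* and *ATP5G3* depended on single cultures. No member was called lower without any one of the knockdown replicates, 4 were without control replicate 1, and 1 was without control replicate 2 or 3. The number called higher was 1 without any one of the knockdown replicates or without control replicate 1. It was 5 without control replicate 2 and 3 without control replicate 3. Leaving out control replicate 2 gave calls in 8.21% (lower) and 8.45% (higher) of all genes tested in that fit. For the other left-out cultures the share of all genes is not given here, so these counts do not set the members apart. In counts from whole cultures, less RNA per cell and fewer cells that express a gene cannot be told apart.

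*SDHB* encodes the iron-sulphur subunit of succinate dehydrogenase, which is both complex II and an enzyme of the tricarboxylic acid cycle (GRCh38, chr1:17018664-17054032, minus strand). Its normalized counts, which are counts scaled to a common library size, were 1277, 1264 and 1039 in the knockdown cultures and 744, 1001 and 871 in the controls. The lowest knockdown culture and the highest control, control replicate 2, nearly met. The log2 fold change was 0.45 (standard error 0.13, edgeR quasi-likelihood adjusted p 0.044). Across the alternatives the adjusted p of *SDHB* from these tests ranged from 0.0027 to 0.17, and the call was lost when any culture other than control replicate 2 was left out.

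*ATP5G3* encodes a copy of subunit c, which forms the rotating ring of the ATP synthase (GRCh38, chr2:175176258-175181710, minus strand). It had 1538, 1427 and 1361 normalized counts in the knockdown cultures and 1654, 2429 and 1933 in the controls. Control replicate 2 was the highest, and the groups did not overlap without it either. The log2 fold change was -0.48 (standard error 0.13, edgeR quasi-likelihood adjusted p 0.039) and -0.31 without control replicate 2 (adjusted p of 0.029). *ATP5G3* was called under 8 of 14 alternatives, with adjusted p from 0.01 to 0.17 (0.17 with the GC and length correction), and its log2 fold change was -0.20 with that correction and control replicate 2 left out. The same subunit c is encoded by *ATP5G1* and *ATP5G2*, neither of which was called, with log2 fold changes of -0.12 and -0.07 (standard errors 0.21 and 0.15) that were 0.21 and 0.17 without control replicate 2. *NDUFC2* encodes an accessory subunit of the membrane arm of complex I (GRCh38, chr11:78068297-78079862, minus strand). Its normalized counts were low, at 118, 131 and 101 in the knockdown cultures and 184, 257 and 153 in the controls, and its log2 fold change was -0.77 (standard error 0.21, edgeR quasi-likelihood adjusted p 0.038). Without control replicate 2 the log2 fold change was -0.53 and the adjusted p 0.051, just outside the threshold. An annotated readthrough gene, *NDUFC2-KCTD14*, spans *NDUFC2* and held 0 counts in every culture, and since the handling of reads in exons shared by overlapping genes is not given, the level of *NDUFC2* is uncertain. The plot of normalized counts by culture shows these 3 genes beside 5 members that were not called.

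**Figure D1:**
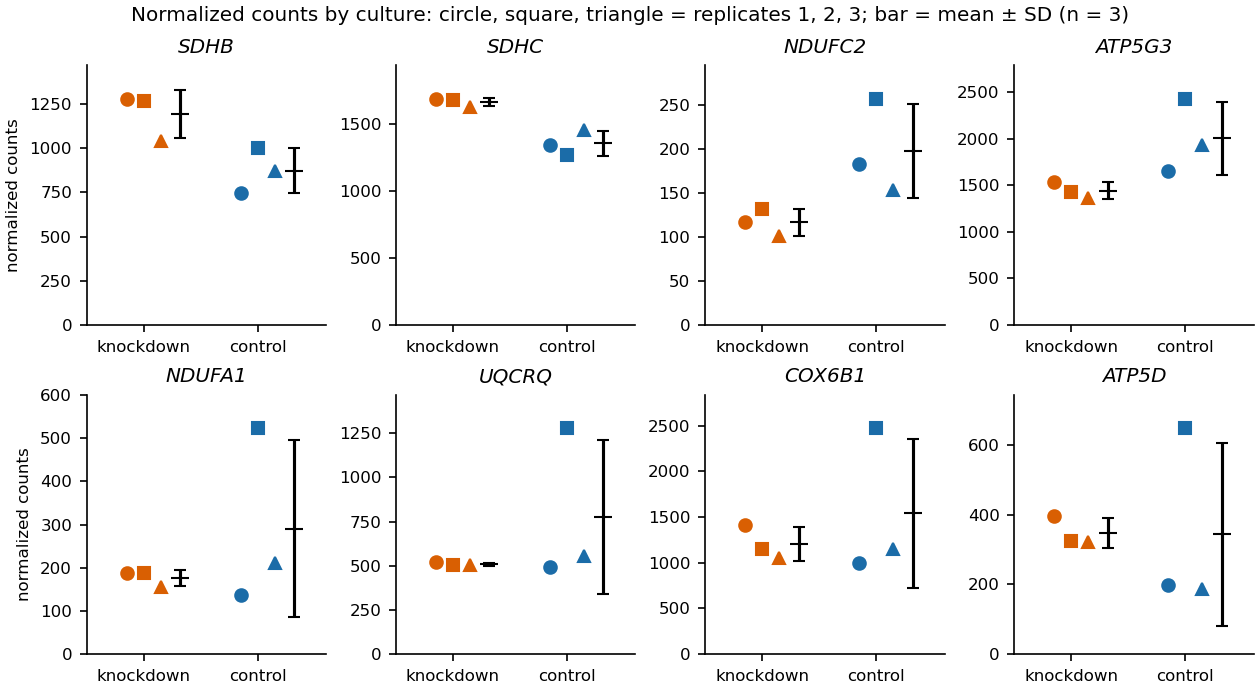
Normalized counts (y axis) in the 3 knockdown cultures (orange) and 3 control cultures (blue), with circles, squares and triangles for replicates 1, 2 and 3 and bars for the mean ± SD. Upper panels show *SDHB*, *NDUFC2* and *ATP5G3*, which were called by edgeR, and *SDHC*, which was not, with *SDHB* at 1039 to 1277 counts in the knockdown cultures against 744 to 1001 in the controls, and lower panels show 4 members in which control replicate 2 (blue square) stood above the other 5 cultures.

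The promoters of the members shared short motifs more often than other promoters did. RefSeq promoter windows on GRCh38.p14, from 250 bases before to 50 bases after a transcript start, were found for 62 of the 77 members, in 75 windows, and 15 members, *NDUFC2* and *ATP5G3* among them, had none. On either strand, the core of the NRF1 motif, CGCANGCG, stood in 33.3% of the members' windows, in 15.6% of the 16796 windows of genes tested and in 10% of all 35116 windows. The ETS motif CCGGAAG stood in 28.0%, 15.8% and 10.3% of these windows, and the YY1 motif ATGGCGGC in 17.3%, 4.92% and 3.0%. One or more of these motifs stood in 61.3% of the members' windows, 31% of those of tested genes and 20.2% of all. The shares for the TATA box, searched as TATAAA, were 8.0%, 6.51% and 11.5%. A window was counted once for each motif it held, whether or not matches overlapped. These shares describe letters and not bound sites. The stretches of 250 bases before the start are printed for *SDHB* (chr1:17054033-17054282, minus strand), which rose, for *SDHA* (chr5:218070-218319, plus strand), its partner in complex II, which was not called, and for *NDUFA1* (chrX:119871582-119871831, plus strand), a complex I gene whose level in control replicate 2 was far from the others. They are written 5′ to 3′ on the strand of the gene, with matches to the motifs in capitals.
SDHB: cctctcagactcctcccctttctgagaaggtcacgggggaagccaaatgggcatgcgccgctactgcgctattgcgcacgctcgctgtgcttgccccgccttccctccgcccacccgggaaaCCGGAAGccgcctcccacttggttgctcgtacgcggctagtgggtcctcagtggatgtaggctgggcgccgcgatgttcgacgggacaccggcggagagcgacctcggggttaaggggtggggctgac
SDHA: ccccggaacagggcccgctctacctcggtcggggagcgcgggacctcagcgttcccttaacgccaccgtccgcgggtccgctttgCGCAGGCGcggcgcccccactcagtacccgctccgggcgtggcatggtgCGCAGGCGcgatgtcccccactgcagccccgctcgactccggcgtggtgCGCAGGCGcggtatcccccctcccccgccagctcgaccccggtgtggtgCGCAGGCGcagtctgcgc
NDUFA1: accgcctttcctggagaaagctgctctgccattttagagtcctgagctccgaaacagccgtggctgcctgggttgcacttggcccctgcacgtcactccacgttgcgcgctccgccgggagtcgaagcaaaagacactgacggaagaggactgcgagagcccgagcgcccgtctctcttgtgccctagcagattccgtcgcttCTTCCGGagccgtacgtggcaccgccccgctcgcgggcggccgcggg
*SDHA* held the NRF1 core 4 times, with first bases 165, 116, 67 and 18 bases before the start, in a stretch that repeats itself. *SDHB* held the ETS motif once, 128 bases before the start, and the YY1 motif once in the 50 bases after it, which are not printed. *NDUFA1* held the ETS motif once on the opposite strand, 47 bases before the start.

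Among the controls, replicate 2 stood apart in these genes. It was the highest of all 6 cultures in 61 of the 77 members, against 4014 of the 14877 genes tested. The median member was 1.53-fold higher in control replicate 2 than in the mean of control replicates 1 and 3, where the median over all tested genes was 1-fold. At least a 2-fold excess was seen in 11 members (14.3%) and in 2.18% of all genes tested. The members took 0.789% of all counts in control replicate 2, 0.544% and 0.595% in control replicates 1 and 3, and 0.565% to 0.624% in the knockdown cultures. By complex, control replicate 2 was the highest culture in 28 of 36 members of complex I, 1 of 4 of complex II, 7 of 8 of complex III, 12 of 12 of complex IV and 11 of 14 of complex V. The heat map shows this culture as a dark column through complexes I, III, IV and V, and no such column in complex II.

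**Figure D2:**
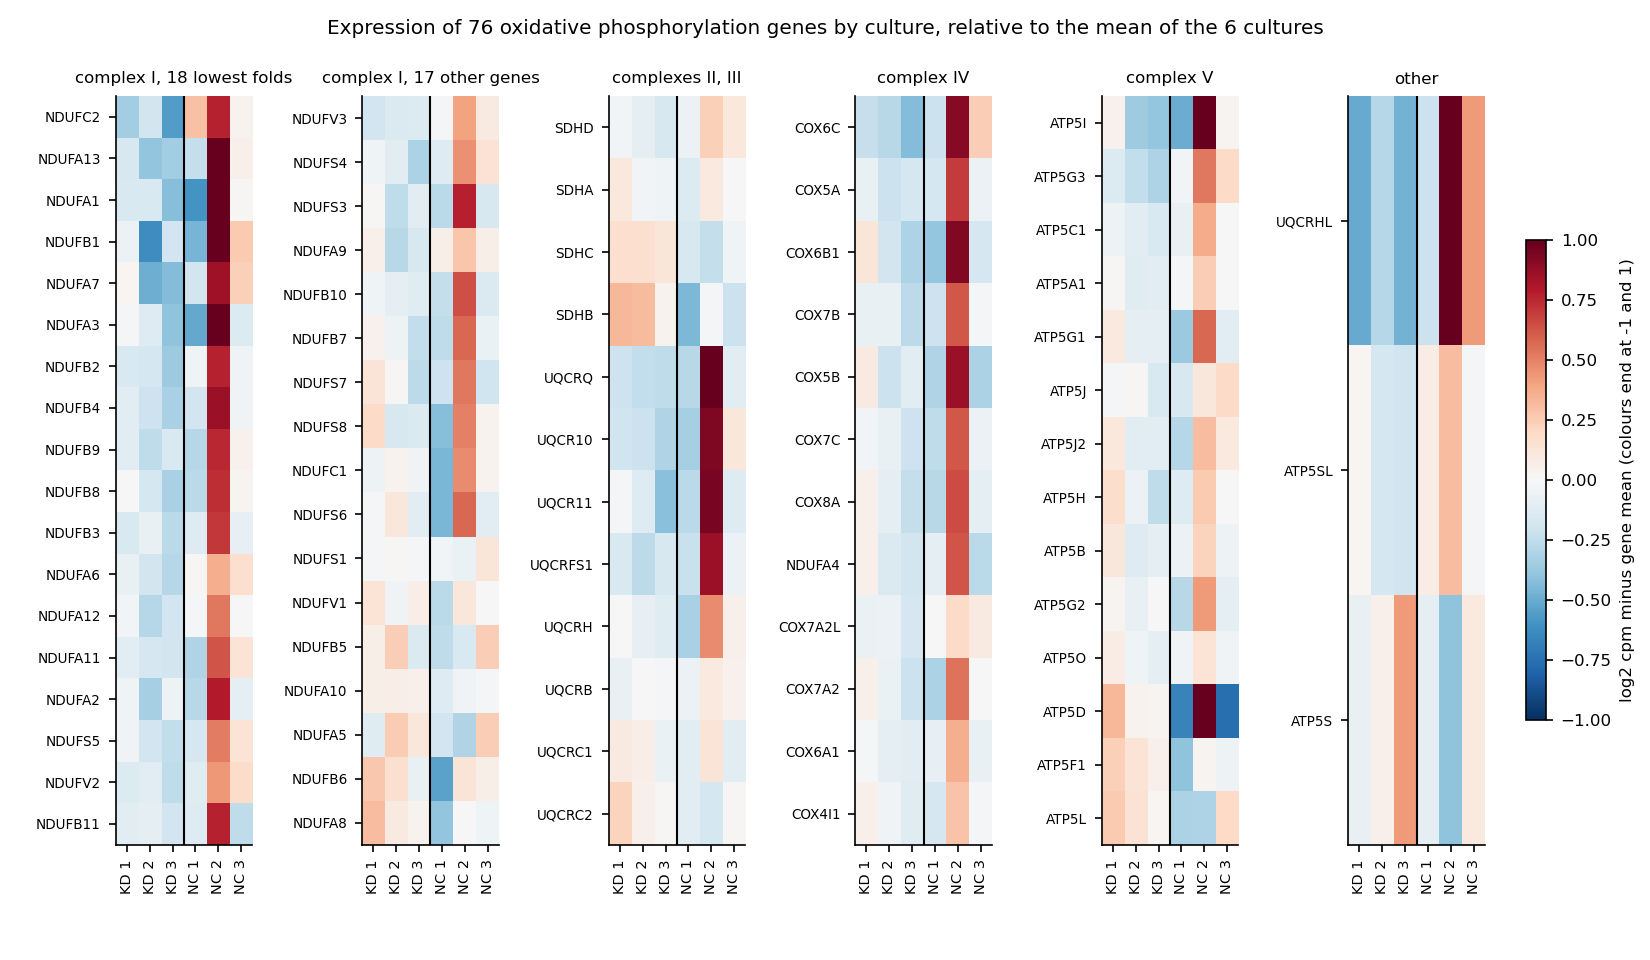
Each row is 1 of 76 members, sorted within its panel by fold change (complex II above complex III in their shared panel), and each column is a culture (KD, knockdown; NC, control), with colour for the log2 cpm (counts scaled to library size) minus the mean of the 6 cultures. Control replicate 2 (NC 2) is the darkest column in complexes I, III, IV and V, and *SDHB* is red in knockdown replicates 1 and 2 and blue in control replicates 1 and 3.

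Without control replicate 2, the lean toward lower values was gone. The median log2 fold change of the members was then 0.02, with 34 negative and 43 positive values, and 1 member was called lower (*ATP5G3*) and 5 higher (*SDHB*, *SDHC*, *ATP5F1* and *ATP5D* among them). Of all 15083 genes tested in that fit, 8.21% were called lower and 8.45% higher. The medians of complexes I to V changed from -0.33, 0.16, -0.32, -0.25 and -0.09 with all 6 cultures to -0.01, 0.17, 0.00, 0.05 and 0.02. Complex II was thus the only complex whose median log2 fold change moved by no more than 0.01, in the 4 genes it holds.

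**Figure D3:**
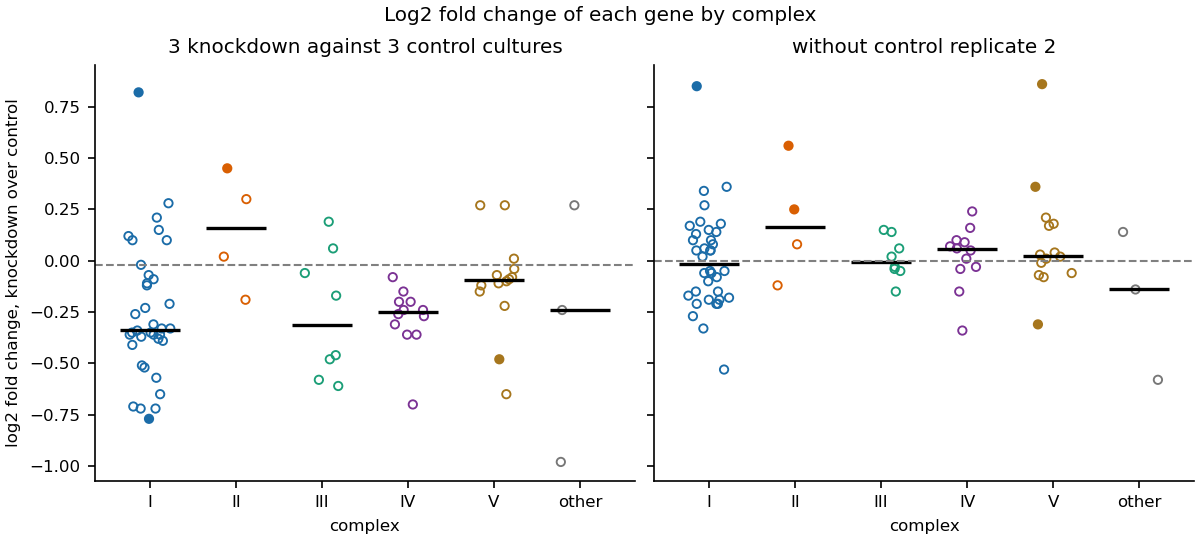
Log2 fold change of knockdown over control (y axis) for each member by complex (x axis), with all 6 cultures (left) and without control replicate 2 (right). Filled points were called by edgeR, black bars are medians of a complex and the dashed line is the median of all genes tested, with complex I at -0.33 on the left and -0.01 on the right.

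The members also had short transcripts, and the excess of control replicate 2 differed by transcript length. The median length of the canonical transcript was 804 bases in the members and 3282 bases in all tested genes, and 44 members (57.1%) were at most 1000 bases long, against 7.31% of tested genes. Among tested genes other than the members, the median log2 excess of control replicate 2 over control replicates 1 and 3 was 0.13 for transcripts up to 500 bases (245 genes), 0.34 from there to 1000 bases (769 genes), 0.19 to 2000 bases, 0.04 to 4000 bases and -0.12 above that (5632 genes). The shortest transcripts thus had a smaller excess than the next range. In the same ranges the members had medians of 0.84 (11 genes), 0.78 (33 genes), 0.27 (16 genes), 0.44 (9 genes) and 0.07 (8 genes), each above that of the other genes. What part length plays in the members' excess was not tested. When each culture's trend with GC content and transcript length was removed, 10 members were called lower and 5 higher, beside 10% and 9.28% of all genes, and the median of the members was -0.17. With the same correction and control replicate 2 left out, a setting chosen after seeing the data, 4 members were lower, 5 were higher and the median was -0.03. The share of all genes called in that fit is not given here.

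In complex I, 1 of 36 members rose and 1 fell, where 5.40% and 4.64% of all genes tested did. Negative log2 fold changes were seen in 29 of the 36, and in 7837 of the 14877 genes tested. Groups did not overlap in 3 members upward and 6 downward, beside 16.4% and 15.8% of all genes tested. The complex takes electrons from NADH through a flavin and a chain of iron-sulphur clusters. The 7 members of its catalytic core had a median log2 fold change of -0.11, which was 0.15 without control replicate 2. *NDUFV1*, which holds the flavin, had 1536, 1361 and 1462 normalized counts in the knockdown cultures and 1160, 1510 and 1392 in the controls (log2 fold change 0.10, standard error 0.11). *NDUFS1*, the largest iron-sulphur subunit, had 2014, 2060 and 2027 against 2003, 1954 and 2227 (log2 fold change -0.02, standard error 0.09). Both genes overlapped between the groups and varied little, unlike *NDUFV2*, another iron-sulphur subunit, which had 823, 844 and 760 in the knockdown cultures and 836, 1229 and 1031 in the controls. The log2 fold change of *NDUFV2* was -0.35 (standard error 0.13, edgeR quasi-likelihood adjusted p 0.12), and -0.21 without control replicate 2.

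The accessory subunits of complex I surround this core and have no part in the electron chain. The 16 accessory members of the *NDUFA*, *NDUFS* and *NDUFV* series had a median log2 fold change of -0.35, and the 13 of the membrane arm, of the *NDUFB* and *NDUFC* series, had a median of -0.38. Without control replicate 2, these medians were -0.12 and -0.05. *NDUFA1*, a small membrane-anchored subunit, had 188, 188 and 156 normalized counts in the knockdown cultures and 138, 523 and 211 in the controls. The knockdown cultures lay between control replicates 1 and 3, and control replicate 2 was 3.0-fold above the mean of these. *NDUFA3* had 156, 145 and 119 against 110, 366 and 144, and *NDUFA13*, also known as GRIM-19, had 1057, 899 and 926 against 998, 2518 and 1219. Control replicate 2 was again far above the other 5 cultures in both. The log2 fold changes of these 3 genes, -0.72, -0.57 and -0.72, had wide standard errors of 0.44, 0.42 and 0.32 and were 0.02, 0.14 and -0.21 without control replicate 2. *NDUFA6* differed in that its knockdown values of 712, 660 and 614 lay below all 3 controls, at 756, 965 and 841. Its log2 fold change of -0.37 (standard error 0.12) was not called (edgeR quasi-likelihood adjusted p 0.072) and was -0.27 without control replicate 2 (adjusted p of 0.089). *NDUFA8* leaned the other way, with 544, 468 and 450 against 334, 440 and 426 (log2 fold change 0.28, standard error 0.14, edgeR quasi-likelihood adjusted p 0.21), and its groups did not overlap. *NDUFA10* had the tightest knockdown values of these, at 1726, 1728 and 1717 against 1509, 1613 and 1640, which gave a log2 fold change of 0.12 (standard error 0.08). *NDUFS5* had the highest level per length in the complex, at 3199 normalized counts per kilobase in the controls, and a log2 fold change of -0.35 (standard error 0.15) that was -0.15 without control replicate 2.

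Complex II was the only complex with a positive median, 0.16, though it has only 4 subunits. Of these 1 was called higher, where 5.40% of all genes tested were. *SDHA* and *SDHB* form its catalytic head, and *SDHC* and *SDHD* anchor it in the membrane. *SDHC* had 1683, 1676 and 1625 normalized counts in the knockdown cultures and 1338, 1270 and 1452 in the controls. The groups did not overlap, and control replicate 2 was the lowest culture. The log2 fold change was 0.30 (standard error 0.09) and the edgeR quasi-likelihood adjusted p, 0.056, just missed the threshold. Leaving out control replicate 2 gave 0.25 (adjusted p of 0.049), and the adjusted p ranged from 0.013 to 0.21 over the alternatives. *SDHA*, the flavoprotein subunit, had 2867, 2620 and 2583 against 2431, 2856 and 2663, with a log2 fold change of 0.02 (95% interval -0.18 to 0.22). *SDHD* had 658, 627 and 601 against 645, 791 and 722, and its log2 fold change was -0.19 (standard error 0.11). The 4 genes of the complex therefore did not share a direction.

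In complex III, no member was called, where 5.40% of all genes tested rose and 4.64% fell. Of its 8 members 6 had a negative log2 fold change, as did 7837 of the 14877 genes tested. *UQCRQ*, a small subunit, had the lowest value, with 520, 505 and 502 normalized counts in the knockdown cultures and 494, 1277 and 554 in the controls. Its knockdown cultures were nearly equal to each other and to control replicates 1 and 3, and the log2 fold change of -0.61 (standard error 0.33) was -0.04 without control replicate 2. *UQCRFS1*, the Rieske iron-sulphur protein, had 1989, 1851 and 1982 against 1897, 3998 and 2126, and its log2 fold change of -0.46 (standard error 0.26) became -0.05. *UQCRH*, the hinge protein, had the highest level per length in the complex, 3025 normalized counts per kilobase in the controls. Its log2 fold change was -0.17 (standard error 0.16) and 0.06 without control replicate 2. *UQCRC2*, a core subunit with the highest fold change here, had 3131, 2777 and 2704 against 2478, 2385 and 2711 (log2 fold change 0.19, standard error 0.09). The copy *UQCRHL* had low normalized counts of 34.7, 40.7 and 35.4 in the knockdown cultures and 42.9, 106 and 67.9 in the controls. Its log2 fold change of -0.98 (standard error 0.31) was the lowest of all members and was not called (edgeR quasi-likelihood adjusted p 0.073). Reads of *UQCRH* and *UQCRHL* may be split between the copies, so this value is uncertain.

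All 12 members of complex IV had negative log2 fold changes, as did 7837 of the 14877 genes tested. None of the 12 was called, where 5.40% of all genes tested rose and 4.64% fell. Complex IV, or cytochrome c oxidase, is where oxygen is used, and its nuclear subunits surround a core encoded by mitochondrial DNA. The log2 fold changes ran from -0.70 in *COX6C* to -0.08 in *COX4I1*, and without control replicate 2 only 4 of the 12 were negative. *COX6C* had 481, 465 and 417 normalized counts in the knockdown cultures and 487, 1062 and 668 in the controls. It was the complex IV gene nearest to a call (standard error 0.24, edgeR quasi-likelihood adjusted p 0.10), and without control replicate 2 its log2 fold change was -0.34 (adjusted p of 0.088). *COX6B1*, which faces the intermembrane space, had 1410, 1146 and 1050 against 993, 2471 and 1156. *COX5B*, which binds zinc, had 741, 600 and 643 against 565, 1270 and 559. In both genes control replicate 2 lay above all other cultures, and the log2 fold changes of -0.36 and -0.27 (standard errors 0.33 and 0.31) were 0.16 and 0.24 without it. *COX6A1* and *COX4I1*, with the highest levels per length in the complex, were steadier than *COX6B1* and *COX5B*. Level per length did not order the spread. *COX6B1* came next in level, at 3156 normalized counts per kilobase in the controls, and *COX7A2L*, at 439, had a standard error of 0.1. *COX6A1*, with 4994 normalized counts per kilobase in the controls, had a log2 fold change of -0.15 (standard error 0.12), and *COX4I1* had -0.08 (standard error 0.12), which became 0.01 and 0.06 without control replicate 2.

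The tissue isoforms of complex IV were at or near 0. *COX4I2*, *COX6A2* and *COX7B2*, which are known from lung, from muscle and heart, and from testis, had 0 counts in every culture. *COX8C* had 0 to 2 counts, *COX6B2* 2 to 7, *NDUFA4L2* 2 to 9 and *COX7A1* 1 to 14, so that the ubiquitous isoforms *COX4I1*, *COX6A1*, *COX6B1*, *COX7A2* and *COX8A* were the ones expressed in all 6 cultures. *ATP5L2*, a copy of *ATP5L*, had 0 to 2 counts, and another readthrough name, *ATP5J2-PTCD1*, had 0. *COX7A1* and *ATP5E*, the epsilon subunit of the ATP synthase, with 4 to 12 counts, were the names outside the minimum that reached 10 counts in some culture. Because the handling of reads that match several genes is not given, the low count of *ATP5E* may not be its level. The lowest member inside it was *UQCRHL*, with 33 to 119 counts.

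In complex V, 1 of 14 members fell, *ATP5G3*, where 4.64% of all genes tested did, and the median log2 fold change was -0.09. The catalytic F1 head, the membrane Fo part and the peripheral stalk that holds them together had medians of -0.11, -0.11 and -0.07, which were -0.02, 0.11 and 0.02 without control replicate 2. *ATP5B*, the catalytic beta subunit, was the most abundant member per length of all complexes, at 6156 normalized counts per kilobase in the controls. It had 11357, 9599 and 9846 normalized counts in the knockdown cultures and 10088, 12240 and 10155 in the controls (log2 fold change -0.08, standard error 0.11). *ATP5A1*, the alpha subunit, had 7040, 6411 and 6468 against 6876, 8269 and 6984 (log2 fold change -0.15, standard error 0.10). Both varied little beside *ATP5D*, the delta subunit of the same head, which had 397, 324 and 322 against 198, 647 and 186. Control replicate 2 held 3.37 times the mean of control replicates 1 and 3 for *ATP5D*, the largest such excess of any member. With all cultures the log2 fold change of *ATP5D* was 0.01 (95% interval -1.07 to 1.09), and without control replicate 2 it was 0.86 and the gene was called (edgeR quasi-likelihood adjusted p 0.00076). *ATP5F1*, a stalk subunit, had 2073, 1932 and 1818 against 1328, 1790 and 1695, so that its groups did not overlap. Its log2 fold change was 0.27 (standard error 0.12, edgeR quasi-likelihood adjusted p 0.15) and 0.36 without control replicate 2 (adjusted p of 0.025). *ATP5L*, an Fo subunit, also had a log2 fold change of 0.27 (standard error 0.14) from 1453, 1335 and 1225 against 973, 979 and 1388, where control replicate 3 lay among the knockdown cultures. *ATP5I*, the lowest of the complex, had 118, 88.7 and 87.0 against 80.6, 261 and 116, and its log2 fold change of -0.65 (standard error 0.39) was -0.01 without control replicate 2.

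Annotated pseudogenes named after a member, processed and unprocessed together, existed for 47 of the 77 members (61.0%). There were 185 in all, led by *COX6C* with 17 and by *NDUFA5* and *NDUFB4* with 12 each. How the authors counted reads that match several places is not given, and *NDUFC2* and *ATP5G3* have no such copy while *SDHB* has 1.

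Genes that build, regulate or feed the complexes were counted from lists, to be read beside the 5.40% of all tested genes that rose and the 4.64% that fell. Of 5 nuclear subunits outside the naming rule, none was called, and *NDUFAB1*, the mitochondrial acyl carrier protein in complex I, had a log2 fold change of 0.26 that became 0.62 without control replicate 2 (edgeR quasi-likelihood adjusted p 0.0017). No assembly factor of complexes I (14 tested), II (4), III (6) or V (3) was called, and 1 of 20 for complex IV was. This was *COA1*, which fell from 1174, 1142 and 951 normalized counts in the controls to 851, 784 and 841 (log2 fold change -0.40, standard error 0.11, edgeR quasi-likelihood adjusted p 0.037). Without control replicate 2, 1 assembly factor each of complexes I, II, III and V was called higher, and 3 of complex IV were called lower. In that fit 8.45% of all genes were called higher and 8.21% lower. Of 16 regulators of mitochondrial biogenesis tested, 1 rose, *PPRC1*, a coactivator of the PGC-1 family, with 1937, 2085 and 2263 normalized counts against 1622, 1606 and 1600 (log2 fold change 0.38, standard error 0.09, edgeR quasi-likelihood adjusted p 0.021). The related coactivator *PPARGC1A* was low, at 91.6, 96.0 and 68.7 against 139, 129 and 110, and its log2 fold change of -0.56 (standard error 0.19) was not called (edgeR quasi-likelihood adjusted p 0.091). *NRF1* itself had a log2 fold change of -0.04 (standard error 0.11). With control replicate 2 left out, 2 of these regulators were called higher and 1 lower.

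Beside the same 5.40% and 4.64% of all genes, rises were also counted among the mobile carriers and the tricarboxylic acid cycle. Of 13 genes for mobile carriers, 3 rose and none fell. *CYCS*, which encodes cytochrome c, the electron carrier between complexes III and IV, had 2201, 2423 and 2336 normalized counts in the knockdown cultures and 1273, 1518 and 1787 in the controls. Its log2 fold change was 0.60 (standard error 0.12, edgeR quasi-likelihood adjusted p 0.0089), and it was 0.60 without control replicate 2 as well. The other 2, *COQ4* and *PDSS2*, belong to the synthesis of ubiquinone, with log2 fold changes of 0.49 and 0.57 (standard errors 0.11 and 0.16, edgeR quasi-likelihood adjusted p 0.016 and 0.048). Of 13 genes of the tricarboxylic acid cycle other than the *SDH* genes, 1 rose and none fell, while 2 rose and 2 fell without control replicate 2, and 3 rose and 2 fell with the GC and length correction. *COA1*, *PPRC1*, *COQ4* and *PDSS2* were no longer called when some single cultures were left out, and *CYCS* was called under every alternative.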

How the data were processed

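RNA-seq was measured in 3 *HSALNG0134318* knockdown and 3 control HEK293 cultures. The authors trimmed reads (Trim Galore 0.6.6, FastQC 0.11.9), removed ribosomal RNA, aligned to hg38 with STAR 2.7.9a and counted genes with featureCounts 2.0.1, per the labels, and deposited whole-number counts without normalization. The paper's methods name other versions of STAR and featureCounts. The annotation, the strand setting and the handling of multi-mapping reads are not given in the sources used here.

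Genes were kept with filterByExpr (14877 genes), scaled by TMM and fitted without a block by the robust quasi-likelihood method of edgeR 4.0.16 in R 4.3.3, with Benjamini-Hochberg adjustment over all genes tested, and called under 0.05. The biological coefficient of variation was 12.4%. Normalized counts refer to the mean of the effective library sizes, and levels per kilobase were divided by the length of the Ensembl canonical transcript. Where that transcript is not the one expressed, a level per kilobase is off by the ratio of lengths. P values set the difference between the groups against the spread between cultures, estimated for each gene with information from all genes. Names were matched to GENCODE v44 on GRCh38, 23161 by symbol and 1372 by synonym, and 1952 had no match. Promoter windows came from RefSeq (GRCh38.p14). Length and GC content, known for 97.3% of tested genes, were corrected for by loess (span 0.3).

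The members and lists were chosen with earlier results of these data known. Named genes were the called members, the highest and lowest fold change and highest level per kilobase of each complex, tissue isoforms, the lowest counts, and called genes of the lists. *SDHA*, *NDUFA1*, *NDUFA3*, *NDUFA6*, *NDUFA8*, *NDUFA10*, *NDUFA13*, *NDUFS1*, *NDUFV1*, *NDUFV2*, *UQCRFS1*, *COX5B*, *COX6B1*, *ATP5A1*, *ATP5D*, *ATP5G1*, *ATP5G2*, *ATP5L*, *NDUFAB1*, *CYC1*, *PPARGC1A* and *NRF1* were added after their values were seen. The alternatives were other size factors, other filters, the replicate number as a block, DESeq2 1.42.0, limma-voom (limma 3.58.1), the GC and length correction, each culture left out, and narrower member rules. In a test on simulated data, edgeR recovered 196 of 200 genes changed 2-fold among 14734, with 9 false calls. All genes were simulated with the same biological coefficient of variation, the changed genes were not low in counts, and no culture stood apart. This recovery thus does not carry over to members with wide standard errors, such as *ATP5D* (0.46). Recovery of smaller changes, such as the 1.37-fold rise of *SDHB*, was not tested. Tables were handled in Python 3.11.15 with pandas 2.3.3, and figures drawn with matplotlib 3.10.9. For 2 genes no values are given here, though all counts and medians include them. Proteins and qPCR were not analysed here.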

Additional observations from a re-analysis of the deposited data

How the results depend on the processing

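The number of members called lower was 2 with all cultures and TMM. It was 4 with the replicate number as a block, 5 with the DESeq2 Wald test, 0 with limma-voom and 10 with the GC and length correction, and it ranged from 0 to 4 when 1 culture was left out. The number called higher, 2, was 5 with the GC and length correction and 1 to 5 with 1 culture left out. With that correction and control replicate 2 left out, chosen after seeing the data, 4 were lower and 5 higher. The other scalings, filters and member rules gave 2 or 3 members in each direction. The cause of these changes was not tested. The median log2 fold change of complex I was -0.46 to -0.01 with 1 culture left out, the latter without control replicate 2. Same-numbered knockdown and control cultures deviated with correlations of -0.199, -0.112 and -0.044, and differently numbered ones with -0.074 to 0.163. Deviations from the mean of only 3 cultures cannot decide whether the numbers pair the samples.

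With 1 culture left out, the log2 fold changes of 11 of the genes named here were among those that turned positive without control replicate 2, with ranges of -0.34 to 0.06 for *UQCRH*, -0.17 to 0.06 for *COX4I1*, -0.22 to 0.01 for *COX6A1*, -0.16 to 0.02 for *ATP5B*, -0.30 to 0.21 for *ATP5G1*, -0.21 to 0.17 for *ATP5G2*, -1.05 to 0.02 for *NDUFA1*, -0.87 to 0.14 for *NDUFA3*, -0.59 to 0.16 for *COX6B1*, -0.47 to 0.24 for *COX5B* and -0.45 to 0.04 for *CYC1*. The ranges of *SDHA* (-0.04 to 0.08), *ATP5D* (-0.28 to 0.86), *NDUFS1* (-0.06 to 0.05) and *NRF1* (-0.08 to 0.01) also held 0. With the GC and length correction *SDHA* was -0.00, and with control replicate 2 left out as well *UQCRH* was 0.05, *NDUFA1* 0.02, *NDUFA3* 0.03, *COX6B1* 0.06, *COX5B* 0.15, *ATP5G1* 0.09, *ATP5G2* 0.06 and *NDUFS1* 0.01. None of these was called in either direction except *ATP5D* as given above. With 3 cultures a group, the standard errors of the members were 0.08 to 0.46, and changes well beyond the standard error could also go uncalled. Examples were *SDHC* (0.30, standard error 0.09) and *NDUFA6* (-0.37, standard error 0.12). A member that was not called is thus not shown to be unchanged.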
